A study of Mus musculus with 12 samples.

Results

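Primordial germ cell-like cells (PGCLCs) made in culture were compared with primordial germ cells (PGCs) of the mouse fetus on 6 of the 12 arrays of the study, 3 for each kind of cell, chosen by their titles. The PGCs came from the genital ridge of male BDF1 fetuses at stage E12.5. The PGCLCs were collected on day 6 of an in vitro differentiation, and their starting cell line, its sex and any reporter or antibody behind the sort were not given in the sources used here. Both kinds of cell were sorted by FACS, lysed in TRIZOL and labelled with the 3′IVT PLUS kit, and each array is labelled as a biological replicate of its group. No mutation or drug is named for either group. The other 6 arrays hold round spermatids and spermatid-like cells and enter nothing below except an alternative fit.

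PGCs are the embryonic precursors of sperm and eggs. They are set aside in the early embryo under BMP signals, through the factors Prdm1, Prdm14 and Tfap2c, and go on expressing pluripotency genes while they migrate to the genital ridge. There they switch on a later germ cell programme that includes Ddx4, Dazl and the piRNA pathway. PGCLCs are derived from pluripotent stem cells and are commonly likened to PGCs from before that switch. Day in culture, origin and stage all differ between the groups and cannot be told apart.

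Signal was compared for 11107 genes, after each gene was reduced to its brightest probe set and genes dim on more than 3 of the 6 arrays were left out. Values below are signal in arbitrary array units, given in the order replicate 1, 2 and 3. The signals are on a scale set per array and probe set, so levels are compared between arrays and not between genes. The 3 PGC arrays were close to each other (Pearson r 0.986 to 0.987 across genes, which are not independent). The 3 PGCLC arrays were not. Replicate 2 lay near the PGCs, with r = 0.968 to their mean, replicate 1 lay far from them at 0.816, and replicate 3 lay between at 0.890.

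The number of genes at least 2-fold from the PGC mean, and outside the PGC range, shows the same order. On PGCLC replicate 1, 1982 genes were higher (17.8% of those tested) and 1243 lower (11.2%). On replicate 2, 741 were higher (6.67%) and 47 lower (0.423%). On replicate 3, 1522 were higher (13.7%) and 395 lower (3.56%). A PGC array set against the other 2 gave between 49 and 69 genes higher and between 62 and 81 lower. At 16-fold or more, 78 genes were higher on replicate 1, 45 on replicate 3 and 0 on replicate 2.

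**Figure D1:**
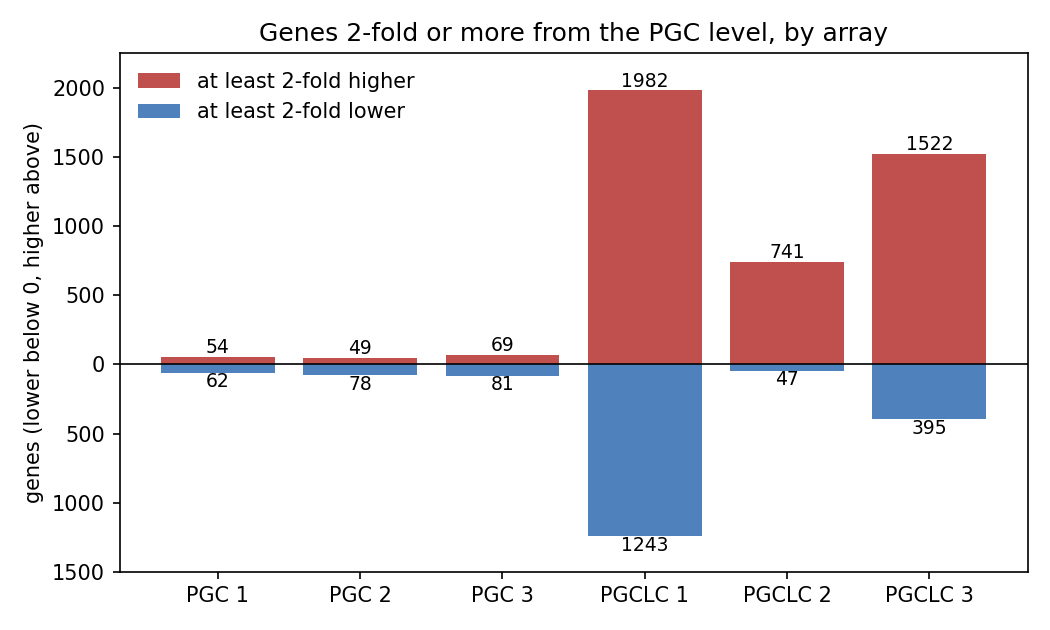
Number of genes (vertical axis) at least 2-fold higher (red, above 0) or lower (blue, below 0) on each array; each PGCLC array is set against the mean of the 3 PGC arrays and each PGC array against the mean of the other 2. PGCLC replicate 1 has 1982 and 1243 such genes, replicate 2 has 741 and 47, replicate 3 has 1522 and 395, and no PGC array passes 81 in either direction.

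Replicate 3 was close to a fixed linear combination of the other PGCLC arrays. Among 300 genes at least 4-fold higher on replicate 1 than on replicate 2, its signal lay between them in 294 (98.0%), and among 232 genes at least 4-fold lower it lay between them in 231. A single weight was taken as the median position of replicate 3 between replicates 2 and 1 over these 532 genes. It was 63.8% of replicate 1 and 36.2% of replicate 2. In 1959 other genes, which differ 2- to 4-fold between replicates 1 and 2 and did not set the weight, replicate 3 deviated from that combination by a median of 0.12 on the log2 scale. Pairs of PGC arrays deviated from each other by medians of 0.17 to 0.18, and replicate 3 deviated from replicate 1 by 0.46 and from replicate 2 by 0.83. The 3 PGCLC arrays are therefore shown separately throughout. What sets them apart was not tested, and whether they share material, or whether a label is in error, is not given in the sources used here. If they share material they are not 3 separate samples, and the adjusted p-values below would then be too small. The signal of 3′ over 5′ probe sets, a sign of RNA integrity, lay within the PGC range on replicate 2: for Gapdh the ratio was −0.36, −0.42 and −0.43 (log2) on the PGC arrays and −0.37, −0.37 and −0.29 on the PGCLC arrays (exact permutation p = 0.3, two-sided; 3 against 3 arrays cannot go below 0.1). For Actb it was 0.52, 0.47 and 0.70 against 0.37, 0.63 and 0.42 (exact permutation p = 0.5).

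Over the 6 arrays, limma called 803 genes higher in PGCLCs (7.23% of the genes tested) and 23 lower (0.207%), where a call needs a Benjamini-Hochberg adjusted p under 0.05 and at least a 2-fold mean difference. At least 2-fold higher on every PGCLC array, a description with no test, were 507 genes (4.56%), of which 471 were also called. Only 4 genes (0.036%) were at least 2-fold lower on every PGCLC array. Without replicate 2, limma called 1720 higher and 737 lower, so that higher genes were 70.0% of the calls in place of 97.2%. The calls also rest on single arrays: without PGCLC replicate 3, or without any single PGC array, 0 genes passed (lowest adjusted p 0.0593 to 0.108), although 1595 to 1850 genes were higher and 1082 to 1184 lower at an unadjusted p under 0.05. Without PGCLC replicate 1, 401 were higher and 10 lower. Every limma call over the 6 arrays named below is lost in those 4 smaller fits. Calls given below for a fit without replicate 2 or without replicate 1 belong to that fit and need not hold on the 6 arrays.

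The genes called higher were mostly dim in PGCs. Of the 803, 539 were among the 2777 genes with the lowest PGC signal and 18 among the 2777 with the highest. This follows in part from the filter on dim genes, since a gene under 95.0 units on every PGC array was tested only if all 3 PGCLC arrays were above that. Among genes named below, those of that kind include Klf9, Bcat1, Prps2, Prss23, Egr3, Thbs1, Lgals3, Csf1r, Hoxb2, Hoxb3, Chac1, Tnfaip3 and Cryab. Their calls are a description. Among genes above 95.0 units on all 6 arrays, 478 were called higher and 221 were at least 2-fold higher on every PGCLC array. In 74 of the 803 at least 1 PGC array was at the floor of 30.9 units, below which signals were not ordered, so their fold changes are lower bounds. Replicate 1 gave the largest difference in 664 of the 803 and replicate 2 the smallest in 719. Of 334 called-higher genes with several probe sets, 324 had all of them on the same side of 0.

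The widest differences common to all 3 PGCLC arrays were in genes of mixed function. Socs3, a feedback inhibitor of LIF and STAT3 signalling, had 130.3, 41.8 and 75.3 units in PGCs and 4269, 859.5 and 3791 in PGCLCs. That is a log2 change of 5.02 ± 0.68 (SE), or 32.4-fold (limma adjusted p = 0.0224). The lowest PGCLC array, replicate 2, still stood well above the highest PGC array. Klf9, a zinc finger factor responsive to steroid and thyroid hormones, went from 87.0, 68.3 and 72.5 units to 6181, 715 and 4728. Its log2 change was 5.19 ± 0.76 (limma adjusted p = 0.0241). Klf9 was under 95.0 units on every PGC array and was tested only through the PGCLC arrays, so its call is a description. Anxa1, a phospholipid-binding annexin, had 113, 108 and 53.7 units against 5951, 598 and 4306. Again replicates 1 and 3 were high and replicate 2 was intermediate.

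Fabp3, a fatty acid-binding protein, had 126, 163 and 194 units in PGCs and 13802, 1049.5 and 9355 in PGCLCs (log2 change 5.02 ± 0.90). Bcat1, the cytosolic branched-chain aminotransferase, had 39.0, 83.5 and 56.2 against 4841, 359.7 and 3242 units (log2 change 4.97 ± 0.93). The metallothioneins, which bind zinc and copper, moved together. Mt2 had 521, 601 and 553 units in PGCs and 16747, 3121 and 13083 in PGCLCs, and Mt1 had 243, 220.2 and 282 against 14450.0, 1384 and 11147. Their log2 changes were 3.98 ± 0.58 and 4.62 ± 0.82 (limma adjusted p = 0.0241 and 0.0300). Prps2, which makes the ribose donor for nucleotide synthesis, rose from 53.6, 59.5 and 44.5 to 1089, 299.4 and 1052 units. Prss23, a secreted serine protease, had 66.6, 83.8 and 39.5 units against 1801, 414 and 1421. Bcat1, Prps2 and Prss23 were under 95.0 units on every PGC array, so they were tested only through the PGCLC arrays. In Mt1 and Mt2 the PGC arrays were tightly grouped and the PGCLC arrays spread over a wider range, with replicate 2 the lowest of them. Marveld1, a membrane protein with a MARVEL domain, had less spread between PGCLC arrays, with 70.2, 128 and 83.5 units in PGCs and 754, 555 and 707 in PGCLCs (log2 change 2.88 ± 0.27).

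Where PGC arrays sat at the floor only a bound can be given. Cldn4, a tight junction protein, had 15.2, 50.9 and 35.7 units in PGCs and 4056, 376 and 3037 in PGCLCs, at least 43.6-fold higher. Zic1, a neural zinc finger factor, was at the floor on all 3 PGC arrays and had 2790.0, 207 and 2094 units on the PGCLC arrays, at least 34.5-fold higher. Fabp7, the brain-type fatty acid-binding protein, was at least 31.4-fold higher, with 3719, 322 and 2620.3 units in PGCLCs. Tbx3, a T-box factor of naive pluripotency, was at least 27.5-fold higher, with 2062, 212 and 1602 units. Flnc, the muscle filamin, was at least 8.26-fold higher and had a narrower range on the PGCLC arrays, 361, 241 and 325 units. All 5 were under 95.0 units on every PGC array, and a gene was tested only if it was above that on at least 3 arrays. They therefore had to be high in PGCLCs to be tested, and their calls (limma adjusted p 0.0119 to 0.0303) are a description.

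**Figure D2:**
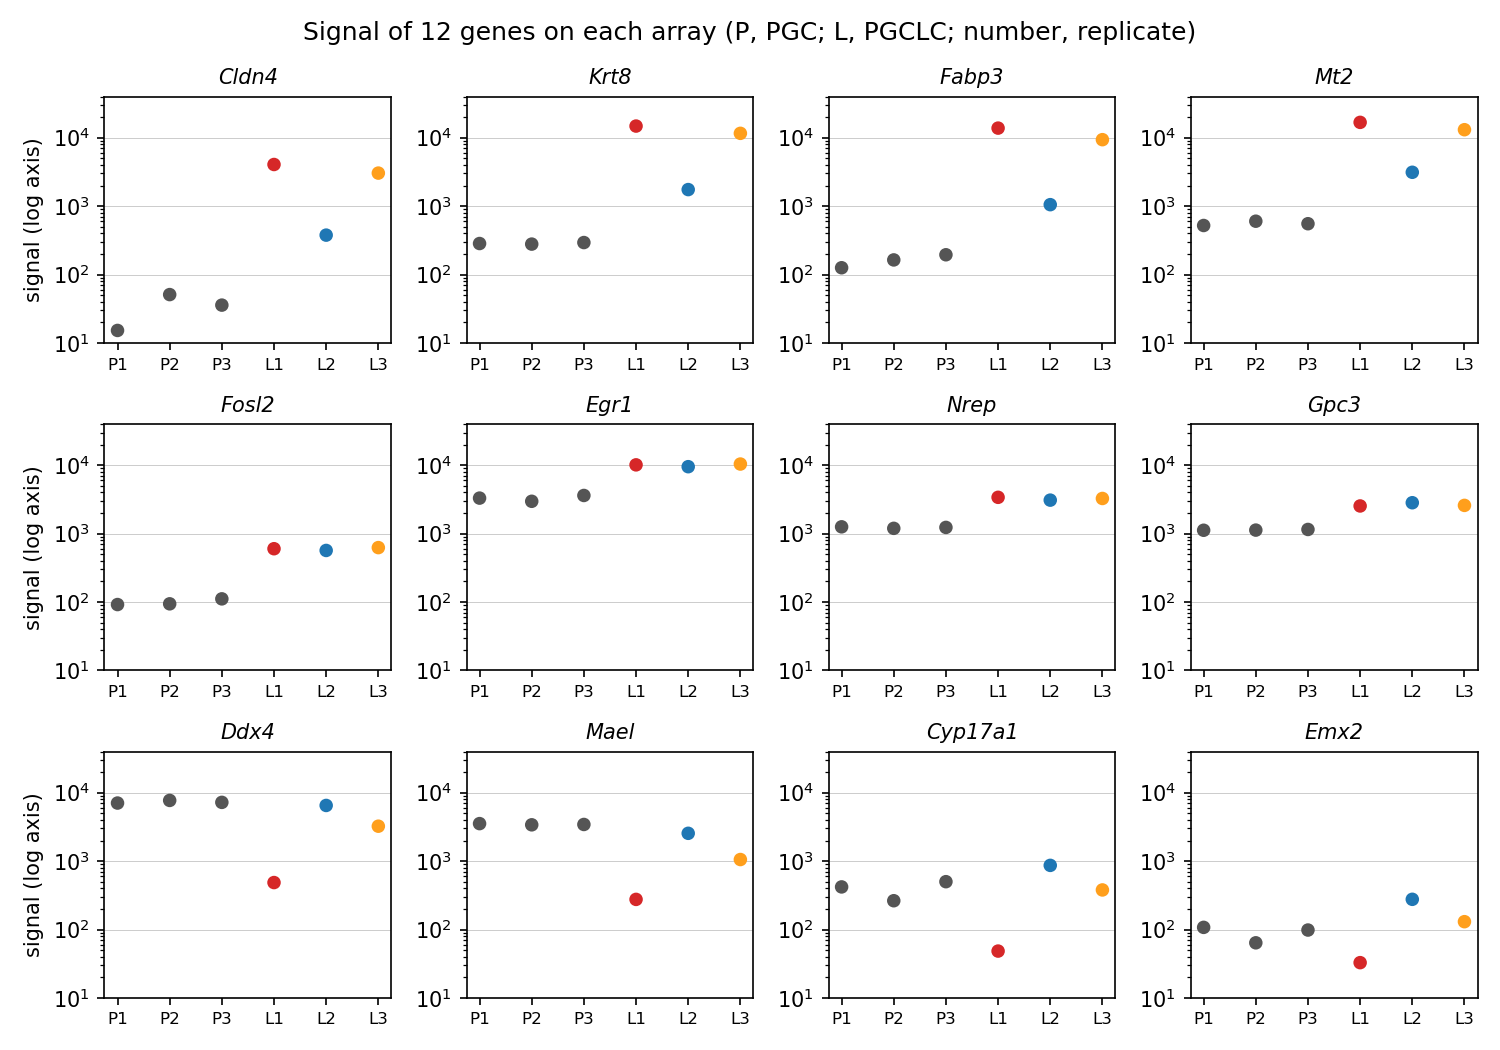
Signal (vertical log axis, array units) of 12 genes on each of the 6 arrays, with PGC replicates as P1 to P3 and PGCLC replicates as L1 to L3; each point is 1 array. In the top row replicate 2 lies between PGCs and the other PGCLC arrays; in the middle row all 3 PGCLC arrays are alike; in the bottom row Ddx4 and Mael are lowest on replicate 1 and Cyp17a1 and Emx2 are highest on replicate 2.

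Other genes differed less between the 3 PGCLC arrays. The following were picked after their values were seen, from the 40 genes called higher with the lowest p, not all of which are given. Over those 40, replicate 2 had a median position of 0.70 on the linear scale from the PGC mean (0) to replicate 1 (1). In 4 of them it lay from 0.25 to 0.5, in 28 from 0.5 to 1 and in 8 at or above replicate 1. Egr1, a zinc finger factor induced by growth factors, had 3302, 2966 and 3609 units in PGCs and 10112, 9509 and 10391 in PGCLCs, a log2 change of 1.61 ± 0.10 (limma adjusted p = 0.00691). Fosl2, a subunit of AP-1, had 91.8, 94.1 and 111 against 601, 567 and 624 units (log2 change 2.60 ± 0.18, limma adjusted p = 0.00691). Nrep had 1256, 1193 and 1231 units in PGCs and 3389.9, 3084 and 3261 in PGCLCs (log2 change 1.40 ± 0.10). In these 3 genes the groups did not overlap, which holds for all 803 genes called higher. Replicate 2 was close to the other PGCLC arrays in these 3.

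The proteoglycan Gpc3 had 1119, 1125 and 1149 units in PGCs and 2535, 2827 and 2584 in PGCLCs, and the growth factor Pdgfc 178, 184 and 168 against 736, 608 and 709.5. The matrix protein Tgfbi had 585, 682 and 656 units against 2854, 2148 and 2453, and Igfbp4, which binds insulin-like growth factors, 958, 849 and 874 against 3204, 2288 and 2825. Their log2 changes were 1.23 ± 0.10, 1.95 ± 0.16, 1.95 ± 0.14 and 1.62 ± 0.15. Vcan, the matrix proteoglycan versican, had 369, 306 and 290.4 units in PGCs and 912, 961 and 954 in PGCLCs (log2 change 1.56 ± 0.15). Cd24a, a surface glycoprotein, rose by 1.13 ± 0.09 on the log2 scale. A low p favours genes alike on all arrays, so the evenness of this set follows in part from how it was picked.

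How far replicate 2 stood from PGCs differed between genes. With the PGC mean set to 0 and replicate 1 to 1 on the linear signal scale, replicate 2 had a median position of 0.17 over the 1982 genes at least 2-fold higher on replicate 1. In 1270 of these it lay under 0.25, in 453 from 0.25 to 0.5, in 210 from 0.5 to 1, and in 49 it was at or above replicate 1. The median was 0.19 for genes 2- to 4-fold higher on replicate 1, 0.20 for 4- to 8-fold, 0.13 for 8- to 16-fold and 0.093 for 16-fold and over. Replicate 3 had a median of 0.69 to 0.71 in all 4 of these fold classes. A single weight described replicate 2 less closely than replicate 3: set as a combination of the PGC mean and 16.5% of replicate 1, it deviated by a median of 0.21 (log2) over 2308 genes. Of the 507 genes higher on every PGCLC array, 187 lay under 0.25, 126 from 0.5 to 1 and 38 at or above 1.

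**Figure D3:**
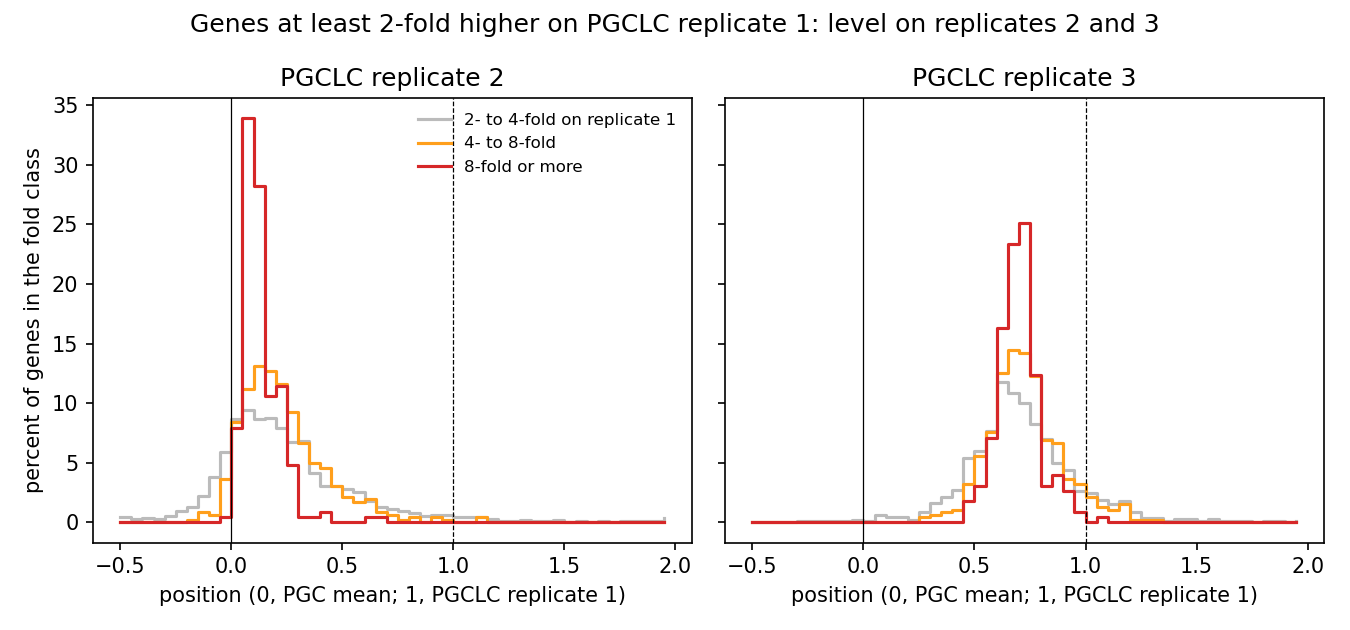
Position of replicate 2 (left) and replicate 3 (right) for genes at least 2-fold higher on PGCLC replicate 1, on a linear scale from 0 (PGC mean) to 1 (replicate 1); the vertical axis is the percent of genes in each fold class, and positions beyond the axis are drawn in its end bins. Replicate 2 gathers near 0, at a median of 0.093 for the genes 16-fold and over on replicate 1, and replicate 3 gathers near 0.7 in every class.

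Gene lists by role are described next. In each list, members were called or not in the fit over all genes; the background is 7.23% called higher, 0.207% called lower and a median log2 change of −0.02 over all genes tested. Without replicate 2 the background was 1720 called higher and 737 lower of the 11107 genes, so a rise in calls there was also seen over all genes. That fit holds only PGCLC replicates 1 and 3, which were close to each other (r = 0.968) and may not be separate samples. Its small p-values reflect that closeness in part and do not measure how well PGCLCs repeat. Without replicate 1 it was 401 and 10, and under quantile normalization 269 and 22. The lists are descriptions and were not tested as sets.

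**Figure D4:**
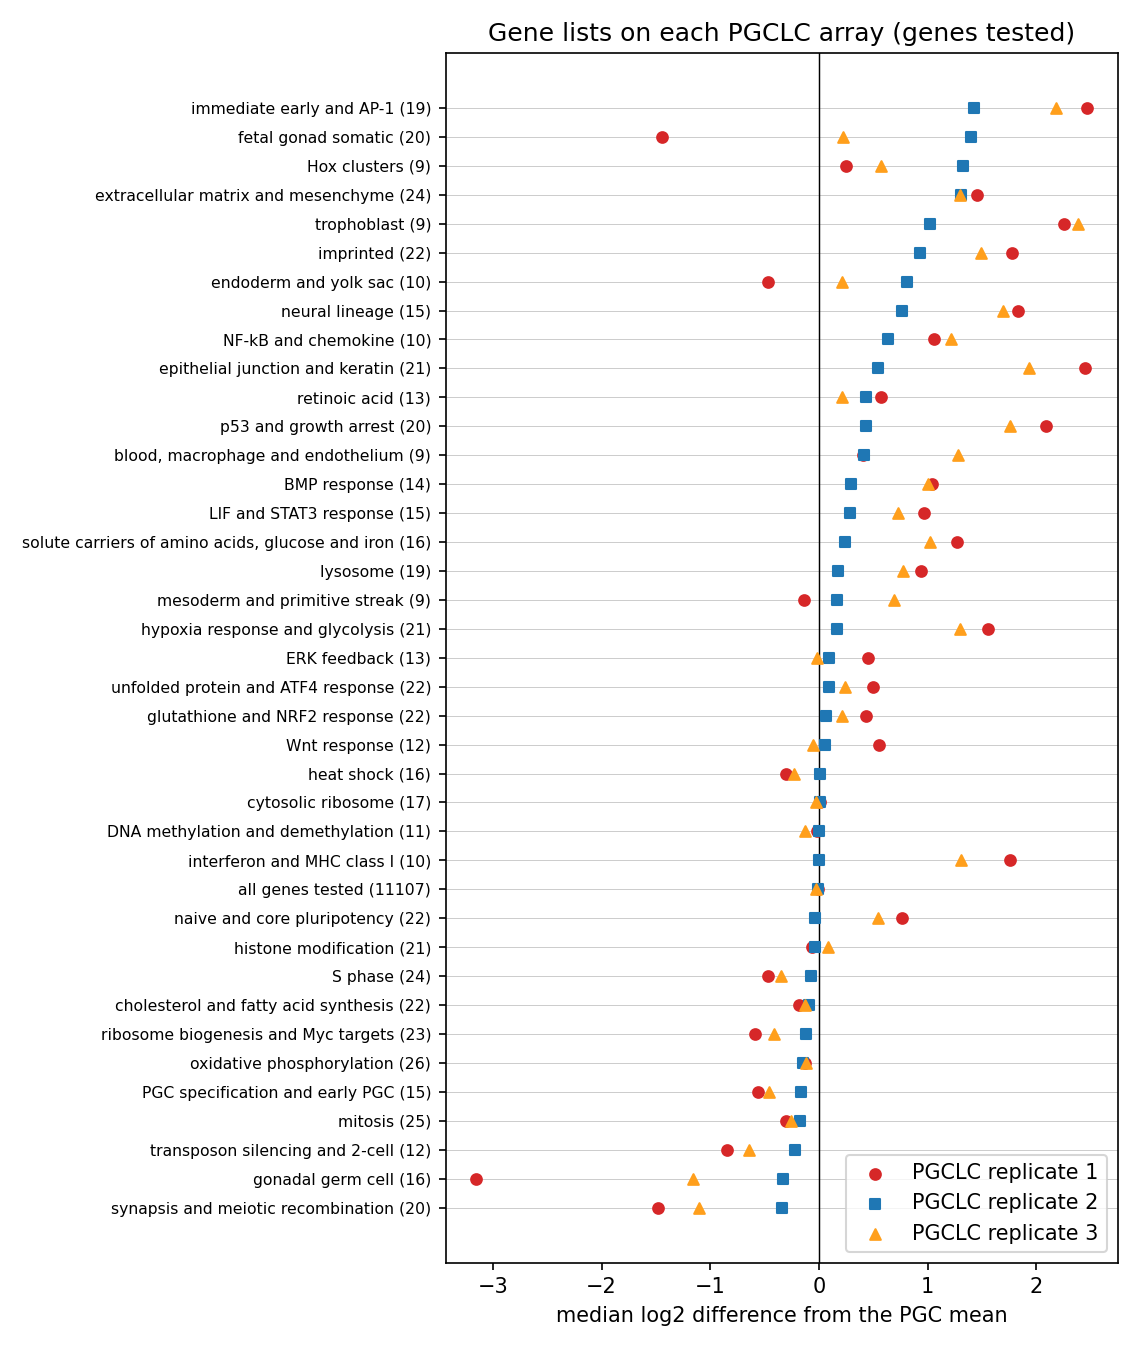
Median log2 difference from the PGC mean (horizontal axis) of the tested members of each gene list, with their number in brackets, on PGCLC replicate 1 (red circles), 2 (blue squares) and 3 (orange triangles). Immediate early genes are high on all 3 arrays (2.46, 1.42 and 2.18), gonadal germ cell genes are lowest on replicate 1 (−3.15) and fetal gonad somatic genes lie above 1 on replicate 2 only.

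Immediate early genes, the fast response to growth factors and stress, held the largest share of calls of any list: 16 of 19 rose and 0 fell, and 12 were at least 2-fold higher on every PGCLC array. The list's median difference was 2.46 on replicate 1, 1.42 on replicate 2 and 2.18 on replicate 3. Fos had 2482, 2232 and 3026 units in PGCs and 14128, 9343 and 12741 in PGCLCs (log2 change 2.22 ± 0.18, limma adjusted p = 0.00847). Jun, its AP-1 partner, had 352, 301 and 357 against 4090.1, 1264 and 2809 units (log2 change 2.86 ± 0.40). Egr3 had 46.4, 43.0 and 76.0 against 669, 201 and 496 units (log2 change 2.93 ± 0.48). Egr3 was under 95.0 units on every PGC array, so it was tested only through the PGCLC arrays. Egr2 was highest on replicates 2 and 3, with 131, 115 and 202 units in PGCs and 465, 518 and 568 in PGCLCs. The members that did not pass were Myc (log2 change 1.08 ± 0.32), Ier5 (0.56 ± 0.21) and Jund (0.19 ± 0.19). Without replicate 2, 17 were called, and without replicate 1, 12.

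Extracellular matrix and mesenchyme genes were higher to a similar extent on the 3 PGCLC arrays: 15 of 24 rose and 0 fell, with median differences of 1.45, 1.31 and 1.30. Vim, the mesenchymal intermediate filament, had 2404, 2411 and 2625 units in PGCs and 9208, 6271 and 8172 in PGCLCs (log2 change 1.65 ± 0.15, limma adjusted p = 0.00985). The basement membrane collagen chain Col4a1 had 1293, 1002 and 1099 units against 2982, 2899.9 and 2806, and its partner Col4a2 441, 462 and 525 against 1705, 1057 and 1506. Sparc, a collagen-binding matrix protein, had 1788, 2379.9 and 2374 units against 5303, 5219 and 5176. Tagln, an actin-binding protein of smooth muscle, and Thbs1, thrombospondin 1, had the largest changes, 3.66 ± 0.79 and 2.87 ± 0.51, and were much higher on replicate 1 (2012 and 806 units) than on replicate 2 (238 and 210.1).

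The fibrillar collagens followed another order. Col1a2 had 951, 936 and 1129 units in PGCs and 2094, 3199.6 and 2335 in PGCLCs, and Col3a1 1762, 1454 and 1744 against 1282, 4246 and 2369, so both were highest on replicate 2. Col1a2 rose (log2 change 1.32 ± 0.18) and Col3a1 did not pass (0.51 ± 0.40). Col1a1 and Col3a1 are also on the list of fetal gonad somatic genes, whose summed signal was highest on replicate 2, and the part of such cells in the matrix result was not tested. Without replicate 2, 16 of the 24 were called higher, and 9 were under quantile normalization.

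Epithelial junction and keratin genes were higher mainly on replicates 1 and 3: 8 of 21 were called higher and 0 lower, with medians of 2.44, 0.54 and 1.93. Krt8 and Krt18 pair to form the keratin filaments of simple epithelia. Krt8 had 284, 278 and 293 units in PGCs and 14786, 1743 and 11573 in PGCLCs (log2 change 4.55 ± 0.75, limma adjusted p = 0.0276). Krt18 had 375, 413 and 376 against 16205, 1914 and 11361 units (log2 change 4.19 ± 0.73). Cdh1 and Epcam, which PGCs also express, had log2 changes of 0.62 ± 0.20 and −0.34 ± 0.09 and were not called. Esrp1, a splicing factor of epithelial cells, was lower on all 3 PGCLC arrays (1580.1, 3526 and 2196 against 4231, 4057 and 4392 units) without passing the test (limma adjusted p = 0.0657). Without replicate 2, 14 were called higher and 2 lower, against 3 higher without replicate 1 and 3 under quantile normalization.

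The neural and trophoblast lists likewise had their smallest medians on replicate 2. Of 15 neural genes 7 rose, with list medians of 1.83, 0.76 and 1.69, including Sox11 (496, 429.8 and 350.4 to 5603, 1586 and 4113 units) and the adhesion molecule Ncam1 (123, 134 and 160.3 to 672, 453 and 686). Sox3, Pax6 and Otx2 did not, with log2 changes of 0.07 ± 0.21, −0.56 ± 0.25 and −0.58 ± 0.27. Of 9 trophoblast genes 6 rose, with list medians of 2.26, 1.02 and 2.38, among them Plac1 (106, 69.1 and 91.6 to 2451, 314 and 1523 units) and Krt7 (101, 121 and 152 to 3618, 337 and 2403). Eomes and Ascl2, regulators of that lineage, had log2 changes of 0.42 ± 0.31 and −0.14 ± 0.16 and were not called. Without replicate 2, 11 neural and 7 trophoblast genes were called higher, and under quantile normalization 4 and 0. Of 15 trophoblast genes on the array 9 passed the filter and were tested. With no filter 1 neural and 0 trophoblast genes of those tested were called higher, against 75 over all genes.

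Other lineages followed other orders. Of 10 endoderm and yolk sac genes 3 rose and 1 fell, with list medians of −0.47, 0.81 and 0.21, highest on replicate 2. Of 20 genes of that list on the array, these 10 passed the filter and were tested. With no filter 0 of the 10 were called higher and 1 lower, against 75 and 4 over all genes. Under quantile normalization 0 were called higher and 1 lower. Apoe, a lipid carrier, had 229, 202 and 107 units in PGCs and 7649, 739.6 and 5074 in PGCLCs. Afp, the fetal serum protein of yolk sac and liver, was the gene that fell, with 175, 194 and 179 units in PGCs and every PGCLC array at the floor, at least 5.91-fold lower (limma adjusted p = 0.0109). Of 9 tested members of the mesoderm list 1 rose, Hoxb2, with list medians of −0.13, 0.17 and 0.69. Of 9 Hox genes 2 rose, Hoxb2 and Hoxb3, with list medians of 0.24, 1.33 and 0.57. Both were under 95.0 units on every PGC array and were tested only through the PGCLC arrays, so these calls are a description. Of 20 mesoderm and 26 Hox genes on the array, 9 each were tested. With no filter 0 of the 9 in either list were called higher, against 75 over all genes. Tbx4 and Lhx1 were far lower on replicate 1 (25.1 and 109 units) than on replicate 2 (934 and 1535), which was near the PGC arrays (1373, 1386 and 1314 for Tbx4 and 1728, 1764 and 1664 for Lhx1). Hoxd9 and Hoxd10 were highest on replicate 2, at 1087 and 232 units, and lowest on replicate 1, at 82.5 and 42.1.

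Imprinted genes, expressed from the maternal or the paternal copy, rose in 12 of 22 cases and fell in 0, with medians of 1.78, 0.93 and 1.49. Igf2, a paternally expressed growth factor, had 1171, 1084 and 1185 units in PGCs and 13732, 3251 and 10664 in PGCLCs (log2 change 2.77 ± 0.50, limma adjusted p = 0.0300). Phlda2, maternally expressed, had 79.7, 5.52 and 116 against 2891, 212 and 1649 units, at least 15.2-fold higher with 1 PGC array at the floor. The non-coding RNA Meg3 had 826, 892 and 998 units in PGCs and 5900.4, 2452 and 4782 in PGCLCs, and Rian, its neighbour in the Dlk1 cluster, 229, 224 and 272 against 1932, 655 and 1542. Dlk1, expressed from the other parental copy, rose as well, from 295, 172 and 254 to 1174, 569.9 and 1064 units. Peg3 and Mest had log2 changes of 0.66 ± 0.09 and 0.52 ± 0.09, under the 2-fold minimum at limma adjusted p = 0.0225 and 0.0289. Snrpn was not called (−1.21 ± 0.57). The arrays do not separate the parental copies.

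Pluripotency genes held few calls over 6 arrays, 2 of 22, with list medians of 0.76, −0.04 and 0.54. Pou5f1 had 7088, 6801 and 6865 units in PGCs and 6064, 6286 and 7054 in PGCLCs, overlapping ranges with a log2 change of −0.10 ± 0.09. Sox2 had 5924, 6083 and 5686 against 9677, 6489.6 and 8573 units, and Nanog 2988, 3003 and 2769 against 10147, 2985 and 8247, so that Nanog was inside the PGC range on replicate 2 alone. Neither was called over 6 arrays (limma adjusted p = 0.0691 and 0.0972). The 2 that rose were Klf4 (673, 630.4 and 680.3 to 5143, 1925 and 4328 units) and Tbx3. Like Nanog, Tdgf1 and Tfcp2l1 were high on replicates 1 and 3 and less than 2-fold above PGCs on replicate 2. Tdgf1, a Nodal co-receptor, had 572, 499 and 602 units in PGCs and 10258, 1012 and 7368 in PGCLCs, and Tfcp2l1 had 274, 303 and 236 against 3672, 439 and 2688. Utf1 was lower on all 3 PGCLC arrays (2437, 4253 and 2865 against 6153, 5678 and 5628 units), with a log2 change of −0.91 ± 0.20 that is under 2-fold. Without replicate 2, that is on replicates 1 and 3 alone, 10 members were called higher and 2 lower. Nanog had a log2 change of 1.65 there (limma adjusted p = 4.03e-06, with the limit given above for that fit). Without replicate 1, 2 were called higher and 0 lower, and Nanog had 0.77 (limma adjusted p = 0.178).

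The PGCLC label was set against genes of PGC specification, of which 15 were tested and 0 were called in either direction over 6 arrays. Their median differences were −0.57, −0.16 and −0.46. Prdm1, the repressor that starts the germ line, had 2251, 2388 and 2164 units in PGCs and 561, 1940.2 and 1022 in PGCLCs. Tfap2c, which acts downstream of it, ran the other way, with 1014, 960.0 and 677 against 2695, 1058 and 1823 units. Dppa3, a maternal and germ cell protein, had 21588, 20850.0 and 22005 against 3567, 19189 and 11456. For all 3 genes replicate 2 was within 1.5-fold of the PGC mean and replicate 1 was at least 2-fold away. Dnd1, an RNA-binding protein needed for PGC survival, had the largest difference of the list, 2861, 2572 and 3045 against 337, 2243 and 1194 units (log2 change −1.54 ± 0.62, limma adjusted p = 0.108). Without replicate 2, on replicates 1 and 3 alone and with the same limit, 4 members were called higher and 6 lower. Among them were Prdm1 (−1.58, limma adjusted p = 2.79e-04) and Dppa3 (−1.75, 0.00295) lower and Tfap2c (1.35, 5.66e-04) higher. Without replicate 1, 0 were called in either direction, and these 3 had −0.69, −0.53 and 0.67 (limma adjusted p = 0.106, 0.105 and 0.129).

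The gonadal germ cell programme separated the PGCLC arrays widely. Ddx4, an RNA helicase of germ granules, had 7054, 7709 and 7218 units in PGCs and 486, 6507 and 3237 in PGCLCs. Dazl, an RNA-binding translational regulator, had 19103, 18902 and 22018 against 2284, 17220.0 and 10506 units. Mael, a piRNA pathway protein, had 3532, 3392 and 3431 against 276, 2547 and 1054. In all 3 genes replicate 1 was lowest by far, replicate 3 lay in the middle and replicate 2 was slightly below the PGC arrays. Over 6 arrays none of the 3 was called, with log2 changes of −1.75 ± 0.85, −1.42 ± 0.67 and −1.93 ± 0.72 (limma adjusted p = 0.158, 0.148 and 0.0922).

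Of 16 gonadal germ cell genes 12 were at least 2-fold below the PGC mean on replicate 1, 12 on replicate 3 and 0 on replicate 2. Over all genes tested these shares were 11.2%, 3.56% and 0.423%. The list's median difference was −3.15, −0.33 and −1.16 on replicates 1, 2 and 3, and its summed signal was 7726, 44524 and 23947 units against 51190 to 55192 on the PGC arrays. Over 6 arrays 1 member fell, Sycp1, the transverse filament protein of the synaptonemal complex (665, 631 and 514 to 203, 368 and 286 units, log2 change −1.11 ± 0.25, limma adjusted p = 0.0385). Without replicate 2, on replicates 1 and 3 alone and with the same limit, 13 of 16 were called lower. The log2 changes were −2.55 for Ddx4, −2.03 for Dazl and −3.07 for the tudor protein Tdrd5 (limma adjusted p = 0.00505, 0.00547 and 0.00225). Without replicate 1, 0 were called, and the 3 changes were −0.67, −0.57 and −0.93 (limma adjusted p = 0.117, 0.0953 and 0.124). Gtsf1 and Tdrd12, both of the piRNA pathway, had log2 changes of −0.41 ± 0.20 and −0.09 ± 0.15 over 6 arrays and were within 2-fold of the PGC mean on every PGCLC array. In RNA from sorted populations, fewer cells of a type and less RNA per cell cannot be told apart.

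Genes of chromosome synapsis and meiotic recombination followed the same order, with medians of −1.48, −0.35 and −1.10 over 20 members. Tex12, of the synaptonemal complex, had 1308, 2001 and 1343 units in PGCs and 105, 772 and 433 in PGCLCs, and Sycp2 had 968, 945 and 993 against 48.8, 681 and 326. Of the 20, 1 was called lower over 6 arrays, 13 without replicate 2 and 1 without replicate 1. Sycp1, Sycp3 and Hormad1 are also on the gonadal germ cell list, and the call over 6 arrays is Sycp1 in both lists. The transposon silencing and 2-cell list had 0 calls over 6 arrays and 6 lower and 2 higher without replicate 2. Its member Piwil4, a nuclear piRNA protein, had 177, 192 and 356 units against 17.9, 135 and 52.1.

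The 8 genes with the widest spread among the PGCLC arrays and no array at the floor were Tdrd5, Bnc1, Mgst2, Lgals3, Kctd14, Serpina3a, Cst9 and Cyp17a1. Bnc1, a zinc finger factor of germ cells and epithelia, had 3538, 3618 and 3729 units in PGCs and 116, 3002 and 1294 in PGCLCs, and Mgst2, a glutathione transferase, 1179.8, 1266 and 1222 against 35.6, 996 and 425. Lgals3, the lectin galectin-3, spread the other way, with 46.8, 59.0 and 34.8 against 3752, 231 and 2619 units. Kctd14, Serpina3a, Cst9 and Cyp17a1 were highest on replicate 2 and lowest on replicate 1. Kctd14 had 1376, 1248 and 1379 units in PGCs and 74.5, 3659.6 and 1328 in PGCLCs, and Cst9 had 482, 435 and 568 against 72.2, 1325 and 539.7. In both genes replicate 3 lay inside the PGC range.

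Markers of the somatic cells of the fetal gonad were used to check the sorted PGCLCs for other cells of that organ. Of 20 tested, 18 were at least 2-fold higher than the PGC mean on replicate 2, all 20 were above the PGC range there, and 11 were at least 2-fold lower on replicate 1. Over all 11107 genes, 741 were at least 2-fold higher and 3771 above the PGC range on replicate 2. On replicate 1, 1243 of all genes were at least 2-fold lower. The list's medians were −1.44, 1.39 and 0.22. Its summed signal was 6616 to 8009 units on the PGC arrays and 5315, 18477 and 10047 on the PGCLC arrays, and 5 members were at the floor on replicate 1. On replicate 2, labelled as in vitro differentiation like the others, these markers stood above their level in PGCs sorted from the genital ridge. Sox9 and Amh, markers of Sertoli cells, were on the array and too dim to be tested.

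By role, Nr5a1, the master regulator of gonadal steroid cells, had 138, 111 and 186 units in PGCs and 10.1, 416 and 167 in PGCLCs. Wt1 and Gata4 are factors of the gonadal ridge. Wt1 had 347, 272 and 382 units against 100, 906 and 298, and Gata4 147, 160.1 and 151 against 48.5, 401 and 165. Of the coelomic epithelium factors, Emx2 had 107, 63.9 and 98.2 units against 32.8, 276 and 130.2, and Lhx9 442, 435 and 558 against 172, 1251 and 543. In all 5 genes replicate 2 was the highest of the 6 arrays and replicate 1 the lowest. Of the Sertoli cell products, Dhh, a hedgehog ligand, had 157, 190.4 and 241 units against 29.8, 503 and 223, and Ptgds, a prostaglandin D synthase, 795, 693 and 641 against 103, 1616 and 638. Of the Leydig cell steroid enzymes, Cyp17a1 had 419, 263 and 500.2 units against 48.4, 866 and 379, and Hsd3b1 327, 308 and 362 against 17.6, 725 and 316. These 4 genes kept the same order, with replicate 2 above all PGC arrays and replicate 1 below them. Over 6 arrays 2 of the 20 were called higher, Dlk1 and Col1a1, and their log2 changes are positive on all 3 PGCLC arrays.

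Markers of blood, macrophages and endothelium ran in different directions, with list medians of 0.41, 0.42 and 1.28. Hbb-y, the embryonic beta-like globin, had 11299, 12097 and 11552 units in PGCs and 1136, 14997 and 7843 in PGCLCs. The summed signal of the 9 tested blood, macrophage and endothelium markers was 13938 to 14966 units on the PGC arrays and 6292, 17835 and 12392 on the PGCLC arrays, most of it from Hbb-y except on replicate 1. Hbb-bh1, another embryonic globin, ran the other way, with 259, 256 and 279.9 units against 2008, 353 and 1476, and so did the macrophage protein Cd68, with 60.4, 88.7 and 96.2 against 944, 109.7 and 635. In this list 1 gene rose, Csf1r, the macrophage growth factor receptor (90.7, 84.8 and 54.2 to 796, 279.7 and 601 units), and without replicate 2, 4 were called higher and 2 lower. Csf1r was under 95.0 units on every PGC array, so its call is a description. Of 20 genes of this list on the array 9 were tested, and with no filter 0 of them were called higher. The part of gonadal somatic or blood cells in the results for replicate 2 was not tested.

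**Figure D5:**
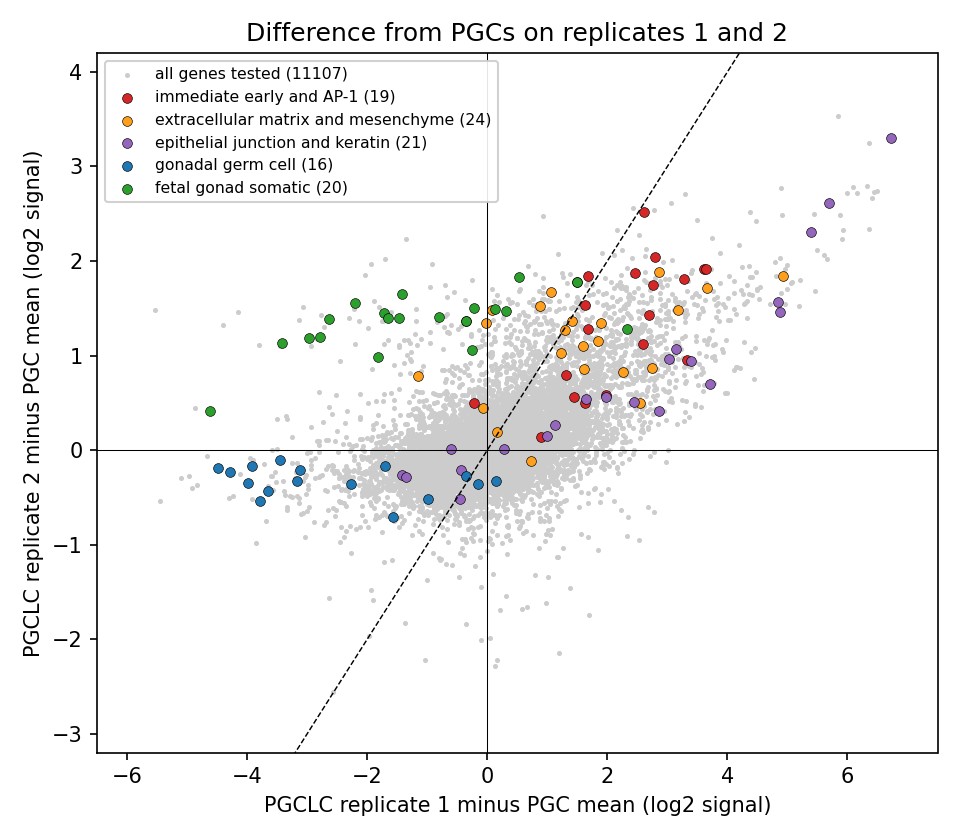
Each gene's log2 difference from the PGC mean on PGCLC replicate 1 (horizontal axis) and replicate 2 (vertical axis), with all 11107 genes in grey and 5 lists in colour; the dashed line marks equal differences. Gonadal germ cell genes run along the horizontal axis to the left, fetal gonad somatic genes lie above it, mostly at the upper left, most epithelial genes lie below the line at the right and immediate early genes rise on both axes.

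Signalling responses had smaller counts, and most of the lists held more calls without replicate 2. The same holds for all genes, with 1720 called higher and 737 lower there against 803 and 23. Of 15 LIF and STAT3 response genes 3 rose, Socs3, Klf4 and Junb, or 7 without replicate 2. Of 14 BMP response genes 4 rose, or 7 without replicate 2, including Id1 (526, 415 and 618 to 2867, 1258 and 2333 units) and Id2 (664, 600.4 and 676 to 3323, 1921 and 2759.8), which encode inhibitors of bHLH factors. Id3, of the same family, had a log2 change of 0.42 ± 0.10 and the inhibitory Smad6 −0.59 ± 0.26. Of 12 Wnt response genes 2 rose, Tcf7l2 (128, 53.7 and 78.9 to 507, 355 and 506 units) and the cyclin Ccnd1 (495, 447 and 488 to 1967, 885 and 1504). Of 13 ERK feedback genes 3 rose, among them the EGF-family ligand Hbegf (log2 change 2.52 ± 0.50). Of 13 retinoic acid genes 3 rose, including the binding proteins Crabp1 (536, 591 and 411 to 11127, 1072 and 7996 units) and Crabp2 (175, 194 and 204 to 2548, 376 and 1570.1). Of 10 genes of NF-kB and chemokines 3 rose, among them Cxcl1 and Tnfaip3, and of 10 interferon and MHC class I genes 3 rose and 1 fell. On the array were 20 and 21 genes of these lists, of which 10 each were tested. Tnfaip3 was under 95.0 units on every PGC array, so its call is a description. With no filter 0 genes of either list were called higher, against 75 over all genes. Under quantile normalization 0 and 1 were called higher. B2m, the light chain of MHC class I, had 403, 464 and 392 units in PGCs and 3356, 1097 and 2266 in PGCLCs, and Irf1, an interferon-regulated factor, fell from 2697, 2716 and 2799 to 1013, 1848 and 1238. Without replicate 2, the Wnt list had 4 called higher and 3 lower, the ERK list 5 and 1, the retinoic acid list 3 and 1, the NF-kB list 6 and 0, and the interferon list 6 and 2.

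Members of the stress and metabolic lists rose in part. Of 20 p53 and growth arrest genes 5 rose, among them Plk2 (237, 175 and 127 to 2019.6, 540.5 and 1511 units) and Bbc3 (95.5, 112 and 86.6 to 415, 215 and 373), and 12 did so without replicate 2. Cdkn1a, the p53-induced inhibitor of cyclin-dependent kinases, had a log2 change of 1.49 ± 0.41 and was not called. Mdm2, which degrades p53, had −0.16 ± 0.10. Of 21 hypoxia and glycolysis genes 5 rose, or 13 without replicate 2. Ldha, lactate dehydrogenase A, had 1147, 741 and 817 units in PGCs and 13842, 2530.2 and 10619 in PGCLCs (log2 change 3.02 ± 0.60), and Hk2, hexokinase 2, 699.5, 677 and 705 against 4775, 1306 and 3565. Of 16 solute carriers of amino acids, glucose and iron 5 rose, or 8 without replicate 2, including the arginine transporter Slc7a1 (357, 399.6 and 406 to 2249.6, 786 and 2115 units). Of 22 genes of the unfolded protein and ATF4 response 4 rose, among them Phgdh and Chac1, or 5 without replicate 2. The heat shock list had medians of −0.30, 0.01 and −0.23, and 10 of its 16 members were below the PGC range on replicate 1, 7 on replicate 2 and 10 on replicate 3. Over all 11107 genes, 4958, 4099 and 4888 were below that range. In the heat shock list 2 genes rose, the small heat shock proteins Hspb1 (529, 431 and 450.1 to 14528, 1762 and 10138 units) and Cryab, or 4 with 1 lower without replicate 2.

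The next lists held 2 or 3 calls each over 6 arrays, against the background of 7.23%. Of 19 lysosome genes 2 were called higher, including the protease Ctsl, or 9 without replicate 2, and of 22 genes of glutathione and the NRF2 response 3, including Gsta4, or 6 with 2 lower without replicate 2. Of 11 genes of DNA methylation 2 rose, Tet2 (462, 364 and 421 to 2644, 743 and 1927 units), which oxidises 5-methylcytosine, and Dnmt3b (753, 582 and 556 to 2937, 994 and 2456), a de novo methyltransferase. Without replicate 2 that list had 4. Of 21 histone modification genes 2 rose, or 2 with 1 lower without replicate 2, the demethylases Kdm6b (358, 442 and 457 to 1889.6, 742 and 1439 units) and Kdm4c (283, 313 and 340.4 to 1233, 469.6 and 876).

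The lists of basic cell functions held no calls over 6 arrays. Oxidative phosphorylation (26 genes), cytosolic ribosome (17), ribosome biogenesis and Myc targets (23), S phase (24), mitosis (25) and sterol and fatty acid synthesis (22) had 0 called in either direction. Their median log2 changes were −0.11, 0.0023, −0.37, −0.30, −0.21 and −0.12. Ribosome biogenesis genes had medians of −0.59, −0.12 and −0.41 on replicates 1, 2 and 3, with 21, 16 and 20 of the 23 below the PGC range, and 3 were called lower without replicate 2. Below that range were 4958, 4099 and 4888 of all 11107 genes. Mitosis genes had −0.31, −0.18 and −0.26, S phase genes −0.47, −0.07 and −0.35, and sterol and fatty acid synthesis genes −0.18, −0.09 and −0.13. Without replicate 2, sterol and fatty acid synthesis had 4 called higher and 2 lower, S phase 1 and 1, and oxidative phosphorylation, cytosolic ribosome and mitosis 0. For Nme1, a nucleoside diphosphate kinase among the Myc targets, the log2 change was −0.88 ± 0.20 (limma adjusted p = 0.0415), under the 2-fold minimum. Kif20a, a mitotic kinesin, had −0.52 ± 0.12 (limma adjusted p = 0.0441). Scd1, which desaturates fatty acids, had 88.9, 143 and 51.1 units in PGCs and 1004, 177 and 606 in PGCLCs but missed the threshold (limma adjusted p = 0.0547).

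Few genes fell. The 4 that were at least 2-fold lower on every PGCLC array were Afp, Cacna1f, Retn and Otop1, all called by limma. Cacna1f, a subunit of a voltage-gated calcium channel, had 549.6, 594 and 533 units in PGCs and 89.8, 189 and 57.2 in PGCLCs (log2 change −2.50 ± 0.42, limma adjusted p = 0.0277). Retn, the hormone resistin, had 119, 129 and 102 units and was at least 3.48-fold lower, with 2 PGCLC arrays at the floor. Otop1, a proton channel, had 105, 119.8 and 131 units and was at least 2.95-fold lower, with 1 PGCLC array at the floor. Among the other 19 genes that fell, named here after their values were seen, were Lefty2, an inhibitor of Nodal (2361, 2348 and 2158 to 623, 1383 and 919.9 units), Uchl1, a ubiquitin hydrolase (2977, 2715 and 2853 to 668, 1763 and 1110.3), and Mnd1, a meiotic strand exchange protein (1624, 1567 and 1430.0 to 558, 872 and 668). In Lefty2, Uchl1 and Mnd1 replicate 2 was again nearest to the PGCs, but below all 3 PGC arrays.

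Promoter sequences were set beside these groups to show what the genes that differ look like upstream. RefSeq held a promoter for 9050 of the 11107 genes and for 385 of the 507 genes higher on every PGCLC array. In the 250 bases before the start the 385 had a median of 13 CpG dinucleotides, against 17 over the 9050. The TATA sequence TATAAA was found on either strand in 14.5% of the 385 and 7.52% of the 9050, and the AP-1 site TGACTCA in 6.49% and 3.64%. The cAMP response sequence TGACGTCA was found in 2.86% and 3.1%, and TCACGTGA in 1.04% and 1.86%. The CArG box, bound by serum response factor, was added after the values were seen and was found in 2.86% and 1.37%. TGACTCA and TGACGTCA share their first 4 bases, and neither contains the other. These shares are descriptions, and a match is not evidence of binding.

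Promoters of 4 genes are shown. Fos and Krt8 were both at least 2-fold higher on every PGCLC array. Replicate 2 was the lowest PGCLC array in both, by more in Krt8. Ddx4 was low on replicates 1 and 3, and Afp was at the floor in PGCLCs. Each line is the 250 bases before the RefSeq start on GRCm38.p6, read 5′ to 3′ on the gene's strand, with CG dinucleotides in capitals. The Ddx4 window holds 31 CpG dinucleotides, that of Fos 15, that of Krt8 3 and that of Afp 1. The windows of Fos and Afp hold TATAAA and the others do not.
Fos, chr12:85473640-85473889, plus strand: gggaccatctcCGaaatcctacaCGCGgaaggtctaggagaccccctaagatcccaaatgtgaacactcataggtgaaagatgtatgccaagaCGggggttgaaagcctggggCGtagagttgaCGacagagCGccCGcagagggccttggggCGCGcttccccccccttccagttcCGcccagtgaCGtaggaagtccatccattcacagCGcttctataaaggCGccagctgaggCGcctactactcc
Krt8, chr15:102004343-102004592, minus strand: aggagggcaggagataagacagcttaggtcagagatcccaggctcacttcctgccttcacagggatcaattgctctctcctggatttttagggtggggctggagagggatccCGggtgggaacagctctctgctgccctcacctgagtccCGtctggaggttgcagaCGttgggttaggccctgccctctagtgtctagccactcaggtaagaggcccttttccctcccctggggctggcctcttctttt
Ddx4, chr13:112652311-112652560, minus strand: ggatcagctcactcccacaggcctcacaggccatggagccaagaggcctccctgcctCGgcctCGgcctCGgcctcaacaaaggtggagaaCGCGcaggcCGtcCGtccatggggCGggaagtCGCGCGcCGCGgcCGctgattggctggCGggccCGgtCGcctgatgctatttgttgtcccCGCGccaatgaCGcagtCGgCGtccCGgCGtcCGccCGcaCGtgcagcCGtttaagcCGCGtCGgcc
Afp, chr5:90490464-90490713, plus strand: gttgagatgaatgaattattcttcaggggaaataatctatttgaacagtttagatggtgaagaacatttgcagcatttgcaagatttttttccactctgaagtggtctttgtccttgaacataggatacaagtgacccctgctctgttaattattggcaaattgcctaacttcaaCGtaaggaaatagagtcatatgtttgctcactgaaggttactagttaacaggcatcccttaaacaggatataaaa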

How the data were processed

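The authors deposited MAS5 signal for each probe set of the Affymetrix Mouse Genome 430 2.0 array, linear intensity in arbitrary units, per the submitters' processing notes. The 2% trimmed mean of each array is 500.0 units. No scan date or scan file was used here. MAS5 subtracts mismatch probes, so dim values are noisy. Of 45101 probe sets, 34945 have 1 gene symbol, 932 have several and 9160 have none in the platform annotation, and 64 are controls.

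From these intensities, values under the 25th percentile of the 6 arrays (30.9 units) were set to it and log2 was taken. Probe sets above the median of the 6-array table (95.0 units) on at least 3 arrays were kept, 19947 in all, and each gene kept the probe set with the highest mean. The 2 groups were fitted with limma 3.58.1 in R 4.3.3 (lmFit, eBayes with trend) over 11107 genes, with no block. The fit was checked on simulated data. Bounds use the floor of 30.9 units per array. Arrays are labelled as biological replicates, with no separate animals or cultures named, so p-values measure the spread between these samples.

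Named genes were the 12 genes in each direction with the largest difference on the PGCLC array nearest to PGCs, up to 5 more in each direction where a group touched the floor, 2 members per list, those of the widest mean change in either direction, the 8 genes with the largest SD among PGCLC arrays, and 8 landmarks. Fewer were named where fewer passed. Members and gene lists were chosen with earlier results of these data known, and other list members named in the text were chosen after their values were seen. Alternatives covered the floor, filter, scaling, variance model, probe set choice, fold minimum, replicate block and left-out arrays. PGCLC replicates were also set against PGCs alone, chosen after seeing the data. Promoters are RefSeq's on GRCm38.p6.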

Additional observations from a re-analysis of the deposited data

How the results depend on the processing

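The main counts are 803 genes called higher and 23 lower, and 507 and 4 on every PGCLC array. Called counts, higher then lower, were 1265 and 248 with all 12 arrays, 1523 and 402 with array weights, 596 and 16 without the intensity trend, 431 and 5 with the replicate block, 269 and 22 after quantile normalization, 779 and 68 after median centring, 478 and 12 for genes above the median on all 6 arrays, 75 and 4 with no filter, 1047 and 370 with no minimum fold, 674 and 16 with 32 units added, 749 and 17 with the floor at the 10th percentile, and 810 and 29 for the mean of probe sets. Array weights could not be fitted to convergence and gave PGCLC replicate 3 almost all the weight. The labels do not say whether same-numbered arrays are paired. Same-numbered arrays deviated from their group means together with r of 0.0032, 0.0008 and 0.0318. These values cannot decide it, since the PGCLC arrays differ far more from each other than the PGC arrays do.

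Leaving out 1 array gave 0 to 1720 genes called higher and 0 to 737 lower, and 523 to 1458 and 4 to 337 on every PGCLC array; the highest are without PGCLC replicate 2. With only PGCLC replicate 1 kept, 1886 were called higher and 1225 lower (1982 and 1243 by fold), with only replicate 2 398 and 22 (741 and 47), and with only replicate 3 1422 and 376 (1522 and 395). The every-array counts moved to 352 and 3 with 32 units added, 221 and 0 above the median on all 6 arrays, 344 and 19 after quantile normalization, 461 and 7 after median centring, 584 and 12 with no filter, and 503 and 6 for the mean of probe sets. The median log2 change of all genes was −0.02, −0.12 after median centring and −0.10 after quantile normalization.

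Of 102 named genes, 63 were called, and all 63 lost the call when PGCLC replicate 3 or a PGC array was left out. Changes of sign were limited to 7 of the named genes, none of them called. Without PGCLC replicate 1, Kctd14, Serpina3a, Cst9 and Cyp17a1 had log2 changes of 0.73, 0.82, 0.78 and 0.59, and without replicate 2 −2.08, −1.47, −1.32 and −1.49. With only replicate 2 kept they had 1.46, 1.52, 1.43 and 1.18, Rpl37 had 0.071 and Tcf21 0.41. With only replicate 3 kept Serpina3a, Cst9 and Pou5f1 had 0.13, 0.13 and 0.028, and with array weights Serpina3a, Cst9, Cyp17a1 and Pou5f1 had 0.14, 0.15, 0.013 and 0.028. The cause of these shifts was not tested beyond the arrays left out. The median log2 change of the cytosolic ribosome list, 0.0023, was −0.093 after median centring and −0.0018 after quantile normalization, and that of the fetal gonad somatic list, 0.10, was −0.13 after quantile normalization and −0.53 without PGCLC replicate 2.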

Other observations

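Genes at least 2-fold above the PGC mean on PGCLC replicate 2 alone numbered 133, and another 48 were so while at least 2-fold below it on replicate 1. The widest on replicate 2, picked after their values were seen, were Prokr2, a receptor of prokineticins, Col9a3, a chain of type IX collagen, and Pcsk5, a proprotein convertase. Prokr2 had 102, 127 and 79.4 units on the PGC arrays and 39.6, 474 and 160.4 on PGCLC replicates 1, 2 and 3. Col9a3 had 155, 152 and 183 units against 49.8, 659 and 193. Pcsk5 had 397, 403 and 399 units against 104, 1567 and 558. In all 3 genes replicate 1 was below the PGC arrays and replicates 2 and 3 above them. No hypothesis is offered for these values.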
